A study of Mus musculus with 4 samples.

Results

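The mechanistic target of rapamycin complex 1 (mTORC1) is a protein kinase complex, and 10 genes that encode its core, its brakes, its activator and a translational target were followed in parental B16F1 cells and in tumor repopulating cells (TRCs). The genes were *Mtor*, *Rptor*, *Deptor*, *Tsc1*, *Tsc2*, *Ddit4*, *Sesn1*, *Sesn2*, *Rheb* and *Eif4ebp1*. They were chosen by their symbols, with earlier results of these data known, and all 10 were found among the 39179 genes of the count data. B16F1 is a mouse melanoma cell line. The 2 control libraries came from the parental line, and the 2 TRC libraries came from the same line after growth of single cells into spheroids in soft 3D fibrin gels of 90 Pa stiffness, from which the cells were isolated on day 5. Only a minority of seeded cells form such spheroids, so the TRC libraries differ from the controls both in culture condition and in the selection of the surviving cells, and these cannot be told apart. The libraries of each group carry the numbers 1 and 3, and no label says that they came from separate cultures, so the p-values measure only the spread between these libraries.

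mTORC1 promotes protein synthesis and cell growth when growth factors, energy and amino acids are available. The kinase mTOR works with the scaffold raptor, encoded by *Rptor*, and is switched on at the lysosome by the small GTPase Rheb. The TSC complex, which contains the products of *Tsc1* and *Tsc2*, turns Rheb off, and REDD1, the product of *Ddit4*, acts through the TSC complex under hypoxia and other stress. Sestrins restrain the Rag GTPase branch by binding the GATOR2 complex, and Sestrin 2 is known as a leucine sensor. The product of *Deptor* binds and inhibits mTOR, and 4E-BP1, the product of *Eif4ebp1*, blocks the cap-binding factor eIF4E until mTORC1 phosphorylates it. Much of this control acts on protein phosphorylation, location and turnover, which were not measured here.

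*Ddit4* and *Sesn1* were higher in TRCs, by 3.77-fold and 2.05-fold, whereas the other 8 genes did not pass the test. Genes were compared with edgeR's exact test and Benjamini-Hochberg adjustment over the 11483 genes tested, with an adjusted p (FDR) under 0.05 as the threshold. All 10 genes were among those tested. Of these, 2 were called higher and 0 lower, where 8.81% of all genes tested were called higher, 7.05% lower and 15.9% in either direction. At an unadjusted p under 0.05, the same 2 were higher and 0 were lower in the exact test, in edgeR's quasi-likelihood test and in DESeq2's Wald test, and both latter tests also called 2 higher and 0 lower. With the library number as a replicate block, the quasi-likelihood test called 0 of the 10, with a smallest FDR of 0.0521. The log2 fold change was negative in 8 of the 10, and the median over the 10 was −0.14, against 0.0034 over all genes tested. The TRC libraries lay entirely above the control libraries for 2 of the genes and entirely below for 3, and the groups overlapped for 5. Among all genes tested, the groups did not overlap for 60.6%.

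Between 35948295 and 43511554 counts fell on genes per library, and single counts of the 10 genes ranged from 505 to 9078. Values are given as CPM, that is counts scaled to a common library size with TMM factors. Standard errors (SE) and 95% intervals come from DESeq2, and n = 2 libraries per group. Melanocyte lineage markers were present at 20869 to 25649 CPM in sum in the controls and 30213 to 32309 CPM in TRCs, and 1 of 9, *Dct*, an enzyme of melanin synthesis, was called higher (log2 fold change 1.08, FDR = 0.000307), a call that the quasi-likelihood test did not make (FDR = 0.0704). The 8 leukocyte markers summed to at most 1.08 CPM with 5 at 0 in every library, and all 5 keratinocyte markers were at 0. The 8 fibroblast and endothelial markers, 2 of them at 0 throughout, summed to 11.5 and 10 CPM in the controls and 5.70 and 3.12 CPM in TRCs. Of the 3 tested, *Col1a2*, a collagen gene, was called lower (−2.52, FDR = 4.15e-06), also by the quasi-likelihood and Wald tests and without any 1 library, and the part of such cells in the results was not tested. In bulk RNA, fewer cells of a type and less RNA per cell cannot be told apart. Alignments that were not unique, which went to no gene, were 15.2% and 17.1% of all alignments for the controls and 18.3% and 25.2% for the TRC libraries. Their part in the differences was not tested. No transcript of another gene matched the longest transcript of a member at 98% identity or more over at least 101 bases, except the neighbours *Pkd1* for *Tsc2* and *Gm9920* for *Deptor*.

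**Figure D1:**
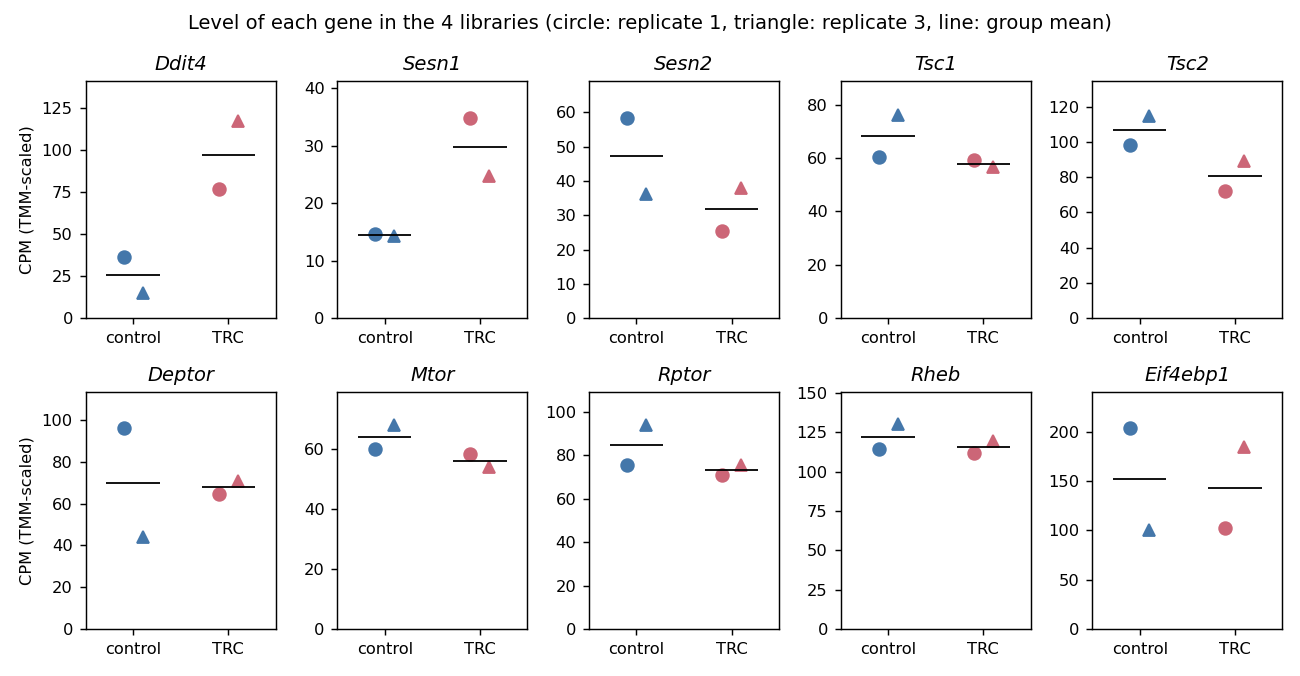
TMM-scaled CPM (y axis, from 0, own scale per panel) of each of the 10 genes in control and TRC libraries; circles are replicate 1, triangles replicate 3, and horizontal lines the mean of 2 libraries. *Ddit4* and *Sesn1* are the only panels in which both TRC points lie above both control points, and in the panels of *Deptor* and *Eif4ebp1* the highest and the lowest of the 4 points are both controls.

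The largest change was that of *Ddit4* (ENSMUSG00000020108, GRCm38 chr10:59949669-59951834, minus strand), the REDD1 gene. In the order replicate 1, replicate 3, which is kept for every gene, it had 36.7 and 14.9 CPM in the controls and 77.0 and 118 CPM in TRCs, from raw counts of 1633, 525, 3202 and 4896. Both TRC libraries lay above both controls, although the controls themselves differed by 2.42-fold on the CPM + 0.5 scale. The mean rose from 25.8 ± 15.5 CPM (SD) to 97.4 ± 28.7 CPM, a log2 fold change of 1.91 with an SE of 0.39, a 95% interval of 1.16 to 2.68 and FDR = 1.37e-05. *Ddit4* stayed called when any 1 library was left out, with log2 fold changes between 1.41 without control replicate 3 and 2.71 without control replicate 1. Its paralog *Ddit4l* encodes REDD2. It had 2.79, 6.63, 3.10 and 2.07 CPM in the same order of libraries, with a log2 fold change of −0.86 and FDR = 0.274, and the groups overlapped. *Ddit4* made up 95.6% and 78.9% of the length-scaled level (RPKM) of both REDD genes in the controls and 97.6% and 98.9% in TRCs.

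*Sesn1* (ENSMUSG00000038332, chr10:41809935-41908424, plus strand), known as a p53-responsive sestrin gene, was the other gene that rose. Its values were 14.7 and 14.3 CPM in the controls and 34.8 and 24.8 CPM in TRCs, from 653, 505, 1447 and 1031 counts. Here the controls lay close together and the TRC libraries lay apart, with replicate 1 the higher. The log2 fold change was 1.04 with an SE of 0.28, a 95% interval of 0.50 to 1.58 and FDR = 0.00766. The call was lost without TRC replicate 1 (log2 fold change 0.76, FDR = 0.284) and without control replicate 3 (1.02, FDR = 0.0670).

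*Sesn2* (ENSMUSG00000028893, chr4:132492032-132510501, minus strand), the gene of the leucine-binding sestrin, did not follow *Sesn1*. It had 58.4 and 36.1 CPM in the controls and 25.5 and 37.9 CPM in TRCs. The groups overlapped, since TRC replicate 3 lay just above control replicate 3. The log2 fold change of −0.58 had a 95% interval of −1.19 to 0.04 and FDR = 0.183. *Sesn3*, a sestrin gene known as a FOXO target and not among the 10, had 26.0 and 29.3 CPM in the controls and 64.8 and 43.9 CPM in TRCs. Both TRC libraries lay above both controls, with a log2 fold change of 0.97, an SE of 0.27 and FDR = 0.00326. This call too was lost without TRC replicate 1, with a log2 fold change of 0.65 and FDR = 0.228.

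**Figure D2:**
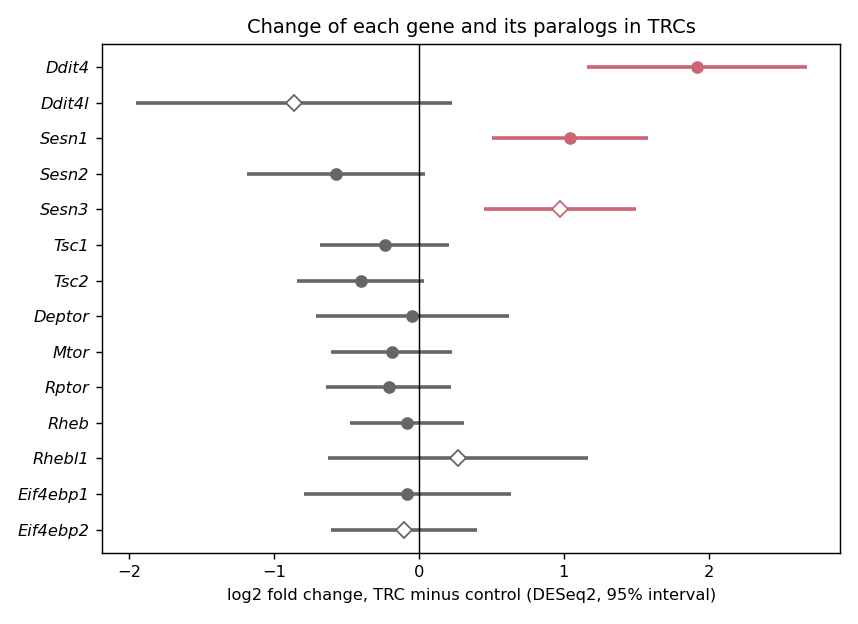
Log2 fold change of TRC against control (x axis) from DESeq2 with 95% intervals for the 10 genes (circles) and 4 tested paralogs (open diamonds); red marks genes called higher by edgeR's exact test. The intervals of *Ddit4*, *Sesn1* and *Sesn3* lie above 0, and all others cross 0.

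The promoters of these 4 genes are shown because *Ddit4* and the sestrin genes are known as stress-responsive, and 3 of them rose whereas *Sesn2* did not pass the test. Each sequence is the 250 bases before an annotated RefSeq transcript start, 5′ to 3′ on the strand of the gene, build GRCm38.p6. Capitals mark the core of the hypoxia response element, ACGTG or GCGTG on either strand. *Ddit4* is at chr10:59951771-59952020 (minus strand), the upstream and downstream starts of *Sesn1* are at chr10:41810324-41810573 and chr10:41887189-41887438 (plus strand), *Sesn2* is at chr4:132510457-132510706 (minus strand) and *Sesn3* is at chr9:14276051-14276300 (plus strand).
Ddit4: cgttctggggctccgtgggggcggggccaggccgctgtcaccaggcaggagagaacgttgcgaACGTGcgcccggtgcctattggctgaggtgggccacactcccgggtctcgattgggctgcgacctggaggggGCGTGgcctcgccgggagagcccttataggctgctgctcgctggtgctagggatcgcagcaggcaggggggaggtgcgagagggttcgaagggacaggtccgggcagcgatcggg
Sesn1 upstream start: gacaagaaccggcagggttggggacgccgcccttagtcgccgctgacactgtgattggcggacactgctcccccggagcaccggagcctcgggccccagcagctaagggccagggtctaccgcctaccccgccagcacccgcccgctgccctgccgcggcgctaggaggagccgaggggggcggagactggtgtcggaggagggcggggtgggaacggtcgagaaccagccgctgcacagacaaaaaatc
Sesn1 downstream start: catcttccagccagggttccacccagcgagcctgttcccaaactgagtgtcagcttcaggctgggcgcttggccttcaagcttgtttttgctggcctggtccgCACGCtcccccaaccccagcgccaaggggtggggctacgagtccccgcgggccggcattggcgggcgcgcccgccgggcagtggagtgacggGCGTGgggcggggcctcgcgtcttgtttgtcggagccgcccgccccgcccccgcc
Sesn2: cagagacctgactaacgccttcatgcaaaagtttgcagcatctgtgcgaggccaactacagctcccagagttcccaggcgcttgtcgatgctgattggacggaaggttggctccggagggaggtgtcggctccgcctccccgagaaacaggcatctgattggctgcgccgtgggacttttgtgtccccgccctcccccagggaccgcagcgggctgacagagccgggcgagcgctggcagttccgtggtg
Sesn3: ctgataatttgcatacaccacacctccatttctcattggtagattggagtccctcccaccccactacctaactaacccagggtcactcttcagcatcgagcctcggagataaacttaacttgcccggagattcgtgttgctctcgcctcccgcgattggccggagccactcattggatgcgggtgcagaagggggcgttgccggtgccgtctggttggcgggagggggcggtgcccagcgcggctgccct
The *Ddit4* window held the core at 187 and 115 bases before the start. The downstream start of *Sesn1* had it at 147 and 55 bases, the first of these as the reverse complement, and the other 3 windows had none. Among the other genes of the 10 with a window, *Rptor* held 2 separate matches, *Tsc1* and *Tsc2* 1 each and *Mtor* none. *Rheb* held 1 site, CACGTG, which matches on both strands, at 96 and 95 bases. None of these 5 genes was called. Of 32841 promoter windows of this length, 38.6% held at least 1 such core, so a match is common. The letters TGATGNAA, an ATF4 composite element found in 3.45% of all windows, and GTAAACA, a FOXO element found in 3.17%, were in none of these 5 windows on either strand. A match is a description of letters and not of binding.

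Targets of the factors known to act on these genes were read beside them, from lists also chosen with earlier results of these data known. *Ddit4* is listed with the targets of HIF, the hypoxia factor. Of the other 20 HIF targets tested, 17 were called higher and 1 lower (85% and 5%, against 8.81% and 7.05% of all genes tested), the median log2 fold change was 2.11, and together they summed to 2094 and 2268 CPM in the controls against 6890 and 13338 CPM in TRCs. *Bnip3*, a mitophagy receptor, had a log2 fold change of 5.13, *Ankrd37* had 5.58 and *Pdk1*, a kinase that inhibits pyruvate dehydrogenase, had 4.39, and the 1 lower gene was *Pfkfb3*, a regulator of glycolysis, with −0.72 (FDR = 0.0375). Without TRC replicate 3 the first 3 genes had 4.27, 4.97 and 3.45, and *Ankrd37* had 6.37 without control replicate 3. The call of *Pfkfb3* held only without control replicate 3 (FDR = 0.0446). By log2 fold change *Ddit4* ranked 13 among the 21 HIF targets.

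*Sesn1* and *Sesn2* are listed with the p53 targets, as is *Ddit4*. Of the other 17 p53 targets tested, 0 were called higher and 4 lower (23.5%), against 8.81% and 7.05% of all genes tested, and the median log2 fold change was −0.19. The quasi-likelihood test called 2 lower, and 1 was lower without control replicate 3, without TRC replicate 1 or without TRC replicate 3. Without TRC replicate 1, 1 was called higher. No other p53 target was higher at an unadjusted p under 0.05 in the exact, quasi-likelihood or Wald test. The lower genes were *Aen*, a nuclease (−1.18, FDR = 0.000155), *Mdm2*, the ubiquitin ligase of p53 (−0.71, FDR = 0.0132), *Gtse1* (−0.77, FDR = 0.0285) and *Ccng1* (−0.69, FDR = 0.0406). *Aen* stayed called without any 1 library, *Mdm2* only without control replicate 1 (FDR = 0.0366) and *Gtse1* and *Ccng1* also only without that library (FDR = 0.000327 and 0.00478). The highest log2 fold change among these 17 was 0.57, against 1.04 for *Sesn1*.

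*Ddit4*, *Sesn2* and *Eif4ebp1* are listed with the targets of ATF4, a transcription factor of the amino acid and integrated stress response. Of the other 21 ATF4 targets tested, 8 were called lower and 1 higher (38.1% and 4.76%, against 7.05% and 8.81% of all genes tested), and the median log2 fold change was −0.76. This count moved with each library left out. In all, 4 were lower and 4 higher without control replicate 1, and 16 were lower without control replicate 3. It was 4 lower without TRC replicate 1, 5 lower without TRC replicate 3 and 5 lower in the quasi-likelihood test. *Atf5* (−2.21, FDR = 0.00492), *Cebpb* (−1.68, FDR = 0.0290), *Atf3* (−1.57, FDR = 0.0420) and *Cth* (−1.33, FDR = 0.00723) were not called without control replicate 1, with −0.32, −0.46, −0.15 and −1.03. The quasi-likelihood test did not call *Atf5* (FDR = 0.0944), *Cebpb* (0.109) or *Atf3* (0.134) and called *Cth* (0.0496). DESeq2's Wald test did not call *Atf5* (FDR = 0.184) and called *Cebpb* (0.0242), *Atf3* (0.0352) and *Cth* (0.00299). The cystine transporter gene *Slc7a11* had −3.54, and *Phgdh* and *Shmt2*, of serine and glycine metabolism, had −0.997 and −1.17. *Vldlr*, a lipoprotein receptor, was the 1 higher gene, at 16.8 and 1.76 CPM in the controls and 29.0 and 43.5 CPM in TRCs, and DESeq2's Wald test did not call it (FDR = 0.328). Its log2 fold change of 1.97 was 4.37 without control replicate 1 and 1.11 without control replicate 3, and its call was lost without either TRC library (FDR = 0.0745 and 0.244). *Slc7a11* ranged from −4.65 without TRC replicate 3 to −2.94 without TRC replicate 1 and stayed called. The summed level of the ATF4 targets, without the 3 genes, was 5244 CPM in control replicate 1, 2793 CPM in control replicate 3, and 2165 and 2556 CPM in TRCs.

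Several of the 10 genes differed between the libraries of 1 group, and so did the ATF4 targets. In control replicate 1 all 21 of these ATF4 targets were higher than in control replicate 3, with a median difference of 1.64 on the log2(CPM + 0.5) scale, and in TRCs 17 of 21 were higher in replicate 3, with a median of −0.53 for replicate 1 minus 3. On the same scale, *Ddit4* differed by 1.28 in the controls and −0.61 in TRCs. *Eif4ebp1* differed by 1.03 and −0.85, and *Sesn2* by 0.69 and −0.56. *Deptor*, which is on none of the 3 target lists, differed by 1.12 in the controls and −0.14 in TRCs. The signed median over all genes tested was −0.0042 in the controls and −0.00068 in TRCs. TMM scaling largely sets this median, so it does not show how far a single gene typically differs. For the 20 other HIF targets the medians were −0.013 and −0.91. The 5 genes *Mtor*, *Rptor*, *Tsc1*, *Tsc2* and *Rheb* differed by at most 0.34 within either group, and *Sesn1* by 0.036 and 0.48. By absolute size among all genes tested, these 5 genes were at percentiles 38.35 to 63.17 in the controls and 18.22 to 65.5 in TRCs. *Ddit4* was at percentiles 98.35 and 89.34, *Eif4ebp1* at 96.6 and 95.21 and *Sesn2* at 89.25 and 87.18. *Sesn1* was at 7.846 and 83.11. *Deptor* was at 97.46 in the controls and within the range of the 5 genes in TRCs. The part of these library differences in the group comparisons was not tested.

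**Figure D3:**
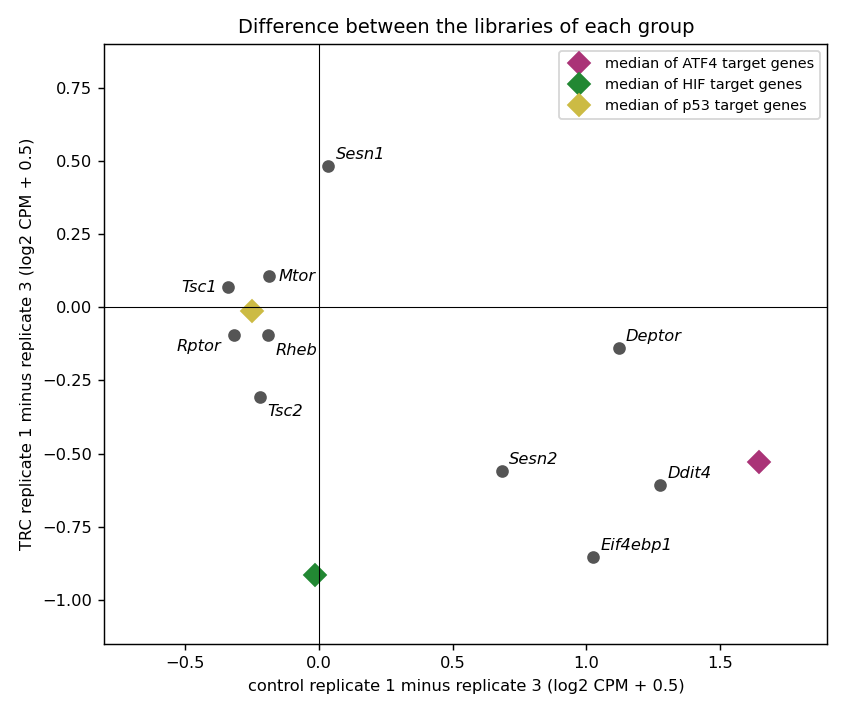
Difference between replicates 1 and 3 on the log2(CPM + 0.5) scale within the controls (x axis) and within TRCs (y axis) for the 10 genes (circles) and the medians of the target lists without them (diamonds). *Sesn2*, *Eif4ebp1* and *Ddit4* lie in the lower right with the ATF4 targets (1.64 and −0.53). *Mtor*, *Rptor*, *Tsc1*, *Tsc2* and *Rheb* lie within 0.34 of 0 on both axes. *Deptor*, which is on none of the target lists, also lies in the lower right (1.12 and −0.14).

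Of the 10 genes, those of the kinase, its scaffold and its bound inhibitor did not pass the test. *Mtor* (ENSMUSG00000028991, chr4:148448611-148557683, plus strand), the kinase, had 59.8 and 68.0 CPM in the controls and 58.1 and 53.9 CPM in TRCs. *Rptor* (ENSMUSG00000025583, chr11:119602905-119899576, plus strand) had 75.3 and 93.9 CPM against 70.9 and 75.7 CPM. Its exons share 84 bases with *Rptoros* on the opposite strand. For *Mtor* the TRC libraries lay just below the controls, and for *Rptor* the groups overlapped. Their log2 fold changes were −0.19 (95% interval −0.60 to 0.23, FDR = 0.632) and −0.21 (−0.64 to 0.22, FDR = 0.604).

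*Deptor* (ENSMUSG00000022419, chr15:55112317-55259271, plus strand) had 96.2 and 44.0 CPM in the controls and 64.4 and 71.1 CPM in TRCs. Both TRC values lay between the control values. The log2 fold change was −0.05, with a wide 95% interval of −0.71 to 0.62 and FDR = 0.943, and it was 0.62 (FDR = 0.0952) without control replicate 1. A gene on the opposite strand, *Gm9920*, overlaps 303 bases of its exons, and the strand setting of the counting is not given in the sources used here.

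*Tsc1* (ENSMUSG00000026812, chr2:28641228-28691167, plus strand) had 60.2 and 76.2 CPM in the controls and 59.3 and 56.4 CPM in TRCs. *Tsc2* (ENSMUSG00000002496, chr17:24595816-24632630, minus strand), the part of the complex that acts on Rheb, had 98.5 and 115 CPM against 72.1 and 89.2 CPM. Both TRC libraries lay below both controls for each gene, with control replicate 1 and TRC replicate 1 close together for *Tsc1*. The log2 fold changes of −0.24 (95% interval −0.68 to 0.21, FDR = 0.536) and −0.40 (−0.84 to 0.03, FDR = 0.244) did not pass the test. The exons of *Tsc2* share 693 bases with *Pkd1* on the opposite strand. *Tbc1d7*, the third subunit of the complex, made up 24.2% and 17.7% of the summed RPKM of the 3 subunits in the controls and 29.9% and 29.1% in TRCs.

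*Rheb* (ENSMUSG00000028945, chr5:24802823-24842624, minus strand) was the steadiest of the 10, with 114 and 130 CPM in the controls and 112 and 119 CPM in TRCs. The groups overlapped. The log2 fold change was −0.08, with a 95% interval of −0.47 to 0.31 and FDR = 0.858. Its paralog *Rhebl1* was low, at 5.40 and 3.57 CPM against 6.83 and 3.97 CPM, with a log2 fold change of 0.27 and FDR = 0.764.

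*Eif4ebp1* (ENSMUSG00000031490, chr8:27260329-27276674, plus strand) had 204 and 100 CPM in the controls and 102 and 185 CPM in TRCs. Within the controls replicate 1 was 2.04 times replicate 3, and within TRCs replicate 3 was 1.81 times replicate 1, both on the CPM + 0.5 scale, so the spread within groups exceeded the difference between them. The log2 fold change was −0.08 with a 95% interval of −0.79 to 0.63 and FDR = 0.909. It was 0.52 without control replicate 1 and −0.59 without TRC replicate 3. *Eif4ebp2*, the paralog known from the brain, had 56.8 and 85.2 CPM against 65.4 and 66.9 CPM (log2 fold change −0.10, FDR = 0.838). *Eif4ebp3* was not tested, with 3 and 3 counts in the controls and 7 and 6 in TRCs, where 3 counts correspond to 0.0675 to 0.0850 CPM.

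Levels of different genes were compared per kilobase of exon (RPKM). The exon length joins all annotated transcripts of a gene. It was 13471 bases for *Rptor* and 7721 for *Rheb*, whose longest transcripts had 6594 and 4046. For *Ddit4* it was 1755 bases, the same as its longest transcript. The order of the genes depends on this length, and another length was not tested. In the controls *Eif4ebp1* was highest at 69.3 ± 33.5 RPKM. *Rheb* (15.8 ± 1.46), *Ddit4* (14.7 ± 8.80) and *Sesn2* (13.6 ± 4.53) followed, then *Tsc2* (11.1 ± 1.20), and the SDs of neighbours in this order overlapped. *Deptor* (7.90 ± 4.16), *Mtor* (6.32 ± 0.58), *Rptor* (6.28 ± 0.98) and *Tsc1* (5.77 ± 0.96) came next, also with overlapping SDs, and *Sesn1* was lowest at 3.64 ± 0.07 RPKM. In TRCs *Ddit4* reached 55.5 ± 16.4 RPKM, within the spread of *Eif4ebp1* at 65.3 ± 26.6 RPKM. *Rheb* followed apart from both its neighbours at 14.97 ± 0.70, and then came *Sesn2* at 9.12 ± 2.51, *Tsc2* at 8.38 ± 1.26, *Deptor* at 7.63 ± 0.53 and *Sesn1* at 7.48 ± 1.78, *Mtor* at 5.54 ± 0.30 and *Rptor* at 5.44 ± 0.25 RPKM, and the SDs of neighbours overlapped. *Tsc1* was lowest at 4.89 ± 0.17 RPKM. *Ddit4* thus had 3.54 and 1.26 times the RPKM of *Mtor* in the controls and 7.63 and 12.6 times in TRCs.

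The sestrins were also read as a family. The sum of *Sesn1*, *Sesn2* and *Sesn3* was 22.2 and 15.9 RPKM in the controls and 20.3 and 20 RPKM in TRCs, and the groups overlapped. *Sesn2* made up 75.7% and 65.3% of it in the controls and 36.1% and 54.5% in TRCs. *Sesn1* made up 16.6% and 22.6% against 43.0% and 31.1%, and *Sesn3* 7.67% and 12.1% against 20.9% and 14.4%. The ratio of *Sesn1* to *Sesn2* was 0.219 and 0.346 in the controls and 1.19 and 0.571 in TRCs. The groups did not overlap for any of these shares or for the ratio, and the two-sided exact permutation test gave p = 0.333, the smallest value that 2 against 2 libraries allow. Of 30 such sums, shares and ratios compared, 20 did not overlap between the groups (among single genes tested, 60.6%), none could reach the threshold, and the smallest p adjusted over them by the Benjamini-Hochberg method was 0.5 in the exact permutation test. For the 4E-BP genes the summed level was 103 and 60.4 RPKM in the controls and 58.0 and 95.9 RPKM in TRCs, and *Eif4ebp1* made up 75.4% to 90.4% of it in every library.

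**Figure D4:**
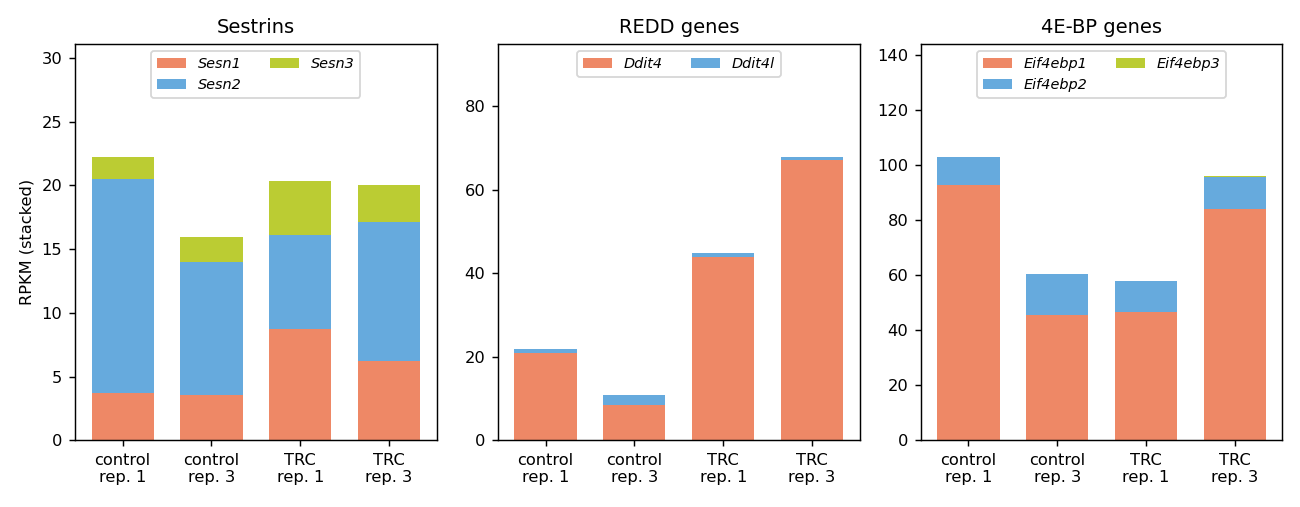
Stacked RPKM (y axis, from 0) of the sestrin, REDD and 4E-BP genes in each of the 4 libraries (x axis), 1 color per gene. The sestrin bars lie between 15.9 and 22.2 RPKM with *Sesn2* at 65.3% or more of the control bars and 54.5% or less of the TRC bars, the REDD bars are higher in both TRC libraries, and the 4E-BP bars differ more within groups than between them.

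The wider pathway was read from 8 lists of genes by role. Without the 10 genes, 101 listed genes were tested, of which 7 were called higher and 8 lower (14.9%, against 15.9% of all genes tested), and their median log2 fold change was 0.06. Leaving out TRC replicate 1 left 2 higher and 2 lower, leaving out TRC replicate 3 left 2 lower, and leaving out control replicate 3 left 4 lower. In the complexes of mTOR, 0 of 7 were higher and 2 lower. Of these 7, 1 was higher and 3 were lower at an unadjusted p under 0.05 in the exact test. The Wald test called 0 higher and 2 lower, and the quasi-likelihood test 0 higher and 1 lower. Those called lower in the exact test were *Telo2* and *Mlst8*. *Telo2*, a chaperone of mTOR and related kinases, had 113 and 109 CPM against 60.0 and 46.6 CPM (log2 fold change −1.06, FDR = 0.000191). *Mlst8*, a subunit that binds the kinase domain, had 24.8 and 39.6 CPM against 16.9 and 18.8 CPM (−0.85, FDR = 0.0386). The quasi-likelihood test did not call *Mlst8* (FDR = 0.0823). For both the TRC libraries lay below the controls. The *Mlst8* call was lost without control replicate 3 (−0.47, FDR = 0.502), without TRC replicate 1 (FDR = 0.275) and without TRC replicate 3 (FDR = 0.163), and that of *Telo2* without TRC replicate 3 (FDR = 0.0501).

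Of 17 growth factor inputs through PI3K and AKT, 2 were higher and 1 lower. *Phlpp1*, a phosphatase that acts on AKT, had a log2 fold change of 0.73 (FDR = 0.0300), and the adaptor *Irs1* had −1.09 (FDR = 0.0168). Of 12 genes of AMPK and its kinase LKB1, 2 were higher and 0 lower. *Prkab2*, an AMPK β subunit, had 1.53 (FDR = 0.000978) and *Stradb*, a partner of LKB1, had 0.93 (FDR = 0.0106). At an unadjusted p under 0.05, 4 genes of the AMPK list were higher and 1 was lower in the exact and quasi-likelihood tests. DESeq2's Wald test called 3 higher and 1 lower. Without TRC replicate 1 the calls of *Phlpp1* (0.42, FDR = 0.472), *Irs1* (FDR = 0.0553) and *Stradb* (FDR = 0.132) were lost. Without TRC replicate 3 those of *Irs1* (FDR = 0.280), *Prkab2* (1.10, FDR = 0.148) and *Stradb* (FDR = 0.134) were lost, without control replicate 1 that of *Phlpp1* (FDR = 0.179), and without control replicate 3 those of *Irs1* (FDR = 0.0977) and *Stradb* (FDR = 0.100).

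The amino acid branch, without *Sesn1* and *Sesn2*, had 2 higher and 2 lower of 17. Beside *Sesn3*, *Bmt2* was higher, with 42.5 and 54.0 CPM against 89.4 and 118 CPM (log2 fold change 1.10, FDR = 0.000229). It encodes SAMTOR, a sensor of S-adenosylmethionine that inhibits mTORC1, and it stayed called when any 1 library was left out. *Itfg2*, a subunit of the KICSTOR complex, had −0.81 (FDR = 0.0196), and *Lars*, leucyl-tRNA synthetase, had −0.80 (FDR = 0.0414). *Itfg2* was not called when any 1 library was left out, and *Lars* stayed called only without control replicate 3. Without control replicate 1, *Lars* had −0.26. Among 12 genes of the Rag GTPases, Ragulator and folliculin, 0 were called in edgeR's exact test, its quasi-likelihood test or DESeq2's Wald test, and in each of these tests an unadjusted p under 0.05 was found for 1 higher and 1 lower gene.

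Of 17 other translation targets, 1 was higher and 2 were lower. *Pdcd4*, an inhibitor of the helicase eIF4A, had 26.9 and 21.3 CPM in the controls and 80.5 and 42.7 CPM in TRCs (1.35, FDR = 0.000305). *Larp1*, a repressor of mRNAs with a terminal oligopyrimidine tract, had 405 and 373 CPM against 211 and 214 CPM (−0.87, FDR = 0.00221), and *Eif4g2* had −0.64 (FDR = 0.0368). Without TRC replicate 1 *Pdcd4* (0.81, FDR = 0.130) and *Larp1* (FDR = 0.0658) were not called, without TRC replicate 3 *Larp1* was not called (FDR = 0.0508), and *Eif4g2* was called in none of the fits that left out a library. *Rps6kb2*, an S6 kinase gene, was at 0 in every library and so was not among the genes tested. Whether its counts of 0 reflect absent transcript or the way reads were counted was not tested. Of 16 autophagy initiation genes and TFE factors, 0 were higher and 1 was lower. This was *Sqstm1*, the autophagy receptor p62, with 1486 and 1451 CPM in the controls and 637 and 662 CPM in TRCs (−1.18, FDR = 1.26e-05), which stayed called without any 1 library. At an unadjusted p under 0.05, 1 of these 16 was higher, and the quasi-likelihood and Wald tests also called 0 higher.

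**Figure D5:**
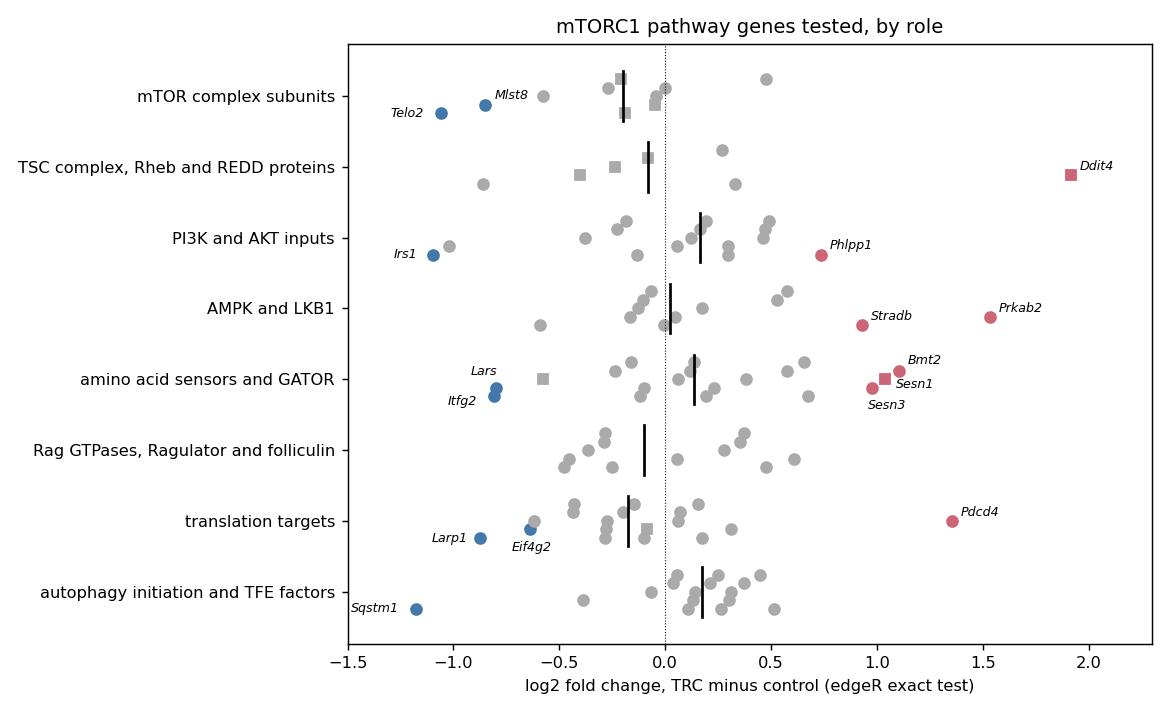
Log2 fold change of TRC against control (x axis, edgeR's exact test) for the tested genes of the 8 pathway lists (rows), except 1 gene that is not drawn; squares are the 10 genes, circles the others, bars the list medians, red genes called higher and blue genes called lower. *Ddit4* (1.91) lies farthest to the right, and no gene of the Rag GTPase list is colored.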

How the data were processed

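Polyadenylated RNA of 4 libraries was measured by RNA-seq. The authors used Trimmomatic 0.35 on single-end reads of stranded libraries, TopHat2 2.1.0 for alignment to GRCm38 and HTSeq for counting, and deposited raw counts per Ensembl gene without normalization. The strand setting of the counting is not given in the sources used here. Samples were grouped by their source labels.

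Totals for reads on no gene were dropped, genes with at least 1 CPM in at least 2 of the 4 samples were kept, and edgeR 4.0.16 under R 4.3.3 gave TMM factors and the exact test, with tagwise dispersions and a prior count of 0.125. The biological coefficient of variation was 21.2%. SE and intervals came from DESeq2 1.42.0. Symbols, positions and exon lengths came from GENCODE M21, and promoters from RefSeq, where 8 of the 10 genes had an entry. Near copies were searched with blastn 2.17.0, and plots drawn with matplotlib 3.10.9.

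The 10 genes and all lists were chosen with earlier results of these data known. Named genes were the 10 genes, 5 paralogs, and from each list up to 3 genes per direction with the smallest FDR; *Ccng1*, *Tbc1d7*, *Rps6kb2*, *Pkd1*, *Gm9920*, *Rptoros*, *Atf5*, *Cebpb*, *Atf3*, *Cth* and the ratios within families were added after their values were seen. A gene that the rule selects is not reported here. Tested on simulated data, where the comparison of TRC with control was given a log2 change of 1.5 in 200 genes of 11483, the exact test recovered 175 with 10 false calls. Every simulated gene had the same dispersion and varied independently of the others, so these rates need not hold for the measured libraries. Alternatives were other filters, scalings and tests, a replicate block, each library left out in turn, and a ratio without the prior count. A fit without 1 library leaves 1 library in a group, which is assumed to vary like the other group.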

Additional observations from a re-analysis of the deposited data

Results flagged for a closer look

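The share of alignments that were not unique, a total outside the gene counts, was 18.3% in TRC replicate 1 and 25.2% in TRC replicate 3, above both controls (15.2% and 17.1%). Its part in the values of the 10 genes was not tested.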

How the results depend on the processing

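The log2 fold changes of the 10 genes and 4 tested paralogs gave 164 values under the alternatives. Of these, 149 kept their direction and their side of the threshold. This tally includes the ratio without the prior count, given for the 10 genes only, which carried the FDR of the main exact test. Those values could change direction but not side of the threshold. The count of the 10 genes called lower stayed at 0 in all 11 alternatives that gave calls. No label says whether the numbers 1 and 3 pair the libraries. Across genes, deviations of same-numbered libraries had r = 0.0267. With genes not independent and 2 pairs, this value cannot show whether they were paired. With the number as a replicate block, the quasi-likelihood test called 785 genes, 0 of the 10 higher, and 3 pathway genes higher and 3 lower. *Ddit4* then had a log2 fold change of 2.02 (FDR = 0.0521), *Sesn1* 1.02 (0.0569) and *Sesn3* 0.95 (0.0607), and *Deptor* a log2 fold change of 0.055. Without the block that test called 1054 genes and 5 pathway genes lower. Leaving out each library in turn gave 773 to 1932 genes called, 1 to 2 of the 10 higher, 2 to 7 pathway genes higher and 2 to 8 lower. The share of calls that were higher was 55.5%, and 65.2% and 64.9% without TRC replicates 1 and 3. Log2 fold changes then ranged from −0.51 to 0.62 for *Deptor*, −0.17 to 0.016 for *Rheb*, −0.59 to 0.52 for *Eif4ebp1*, −0.37 to 0.22 for *Eif4ebp2* and −0.20 to 0.60 for *Rhebl1*, and *Ddit4l* was called without control replicate 1 (−1.36, FDR = 0.0430). The cause was not tested. With 2 libraries a group, intervals are wide, and a p that misses the threshold does not show equal levels.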
